A study of Mus musculus with 267 samples.

Results

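Enhancers can carry methylated histone H3 before they are active. In bone marrow-derived macrophages (BMDMs) of C57BL/6J (C57) mice, primed regions were defined here as open chromatin regions outside annotated promoters that held dimethylated lysine 4 of histone H3 (H3K4me2) and little acetylated lysine 27 (H3K27ac). The 1000-bp regions were centred on peaks of accessible chromatin. A region was selected on its own basal values, a mean of at least 32 normalized tags of H3K4me2 and under 16 of H3K27ac over 2 libraries each, and on not being annotated promoter-TSS by the authors. A normalized tag is a sequenced fragment end counted in the region, scaled to the same library size for all libraries. In all, 5619 of 67742 regions passed, which is 8.29% of the table and 10.1% of its 55682 non-promoter regions. For comparison, 25128 non-promoter regions passed the H3K4me2 limit with at least 16 tags of H3K27ac (active regions) and 21278 were below both limits.

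Chromatin immunoprecipitation with sequencing (ChIP-seq) was performed in BMDMs that were grown from bone marrow with M-CSF and left untreated (basal) or given 20 ng/mL of the cytokine interleukin-4 (IL-4). C57 BMDMs were sampled at basal, 1, 6 and 24 h, and BMDMs of 4 other strains at basal and 24 h. Of these, BALB/cJ (BALB) and NOD/ShiLtJ (NOD) are classical laboratory strains, PWK/PhJ (PWK) is a wild-derived strain and SPRET/EiJ (SPRET) comes from another mouse species, Mus spretus. Cells with floxed Egr2 alleles alone (Egr2 fl/fl) or with the LyzM-Cre driver, which deletes floxed alleles in myeloid cells (LyzM-Cre Egr2 fl/fl), were also sampled at basal and 24 h. In C57, groups held 2 libraries, except for RNA polymerase II (Pol II) with 4 at basal, 1 at 1 h, 2 at 6 h and 3 at 24 h. H3K27ac in each other strain and Egr2 genotype had 2 libraries per condition, and strain Pol II 2 or 3. Across the 155 libraries analysed, the total number of tags was 4691644 at the lowest and 29050468 at the highest. In these bulk samples a mark present in fewer cells and less of it per cell cannot be told apart. The share of H3K27ac tags inside the 67742 regions was 65.4% and 59.6% in the basal C57 libraries and 43.2% and 38.2% in the 24 h libraries, and this difference moves with every H3K27ac comparison over time; its part in the results was not tested. Basal Pol II replicate 1 stood apart at IL-4-responsive regions, as described with the Pol II results. All 8 macrophage marker genes had a region at their start with at least 16 tags of basal H3K27ac, with a sum of 4894 and 4663 tags in the basal libraries and 2080 and 2011 at 24 h. Of 10 lymphocyte markers 2 had any region at their start and 1 reached 16 tags, of 8 granulocyte and mast cell markers 3 and 2, of 5 dendritic cell markers 2 and 0, and of 8 stromal, epithelial and endothelial markers 3 and 1.

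Primed enhancers are read as sites that pioneer and lineage-determining factors have opened and marked with H3K4 methylation, but where the acetyltransferases that place H3K27ac, and transcription, are still at a low level. In macrophages the lineage-determining factors include PU1, an ETS factor, and CEBPb. IL-4 binds a receptor that activates the transcription factor STAT6 through JAK kinases, and STAT6, PPARg and EGR2 act at enhancers that respond to the cytokine. Trimethylated lysine 4 (H3K4me3) marks active and CpG-rich promoters. CpG-rich DNA also attracts H3K4 methylation at promoters that are silent, so H3K4me2 without H3K27ac is found at more than one kind of element.

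The central 200 bases of 3 primed regions that gained H3K27ac are shown first, because each holds a STAT6 match, 2 spaced half-sites written TTCNNNNGAA, which reads the same on both strands. Capitals mark matches to it, to the AP-1 letters TGANTCA or to the C/EBP letters TTGCNNAA, each searched on both strands. All are plus-strand sequence of GRCm38 (mm10) and lie in regions annotated as intergenic. The first, near Ear14, had the largest H3K27ac rise, the second, near Pim3, leads the regions called in all 4 other strains, and the third, near Inpp5a, belongs to both sets.
Ear14, chr14:51219238-51219437: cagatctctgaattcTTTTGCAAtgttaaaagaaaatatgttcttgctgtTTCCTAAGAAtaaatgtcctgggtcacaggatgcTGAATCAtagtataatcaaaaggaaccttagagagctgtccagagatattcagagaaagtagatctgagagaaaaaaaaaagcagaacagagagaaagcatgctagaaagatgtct
Pim3, chr15:88855538-88855737: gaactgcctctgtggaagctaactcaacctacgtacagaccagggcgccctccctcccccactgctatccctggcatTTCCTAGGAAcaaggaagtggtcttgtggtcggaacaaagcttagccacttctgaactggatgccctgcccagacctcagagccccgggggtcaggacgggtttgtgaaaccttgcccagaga
Inpp5a, chr7:139350705-139350904: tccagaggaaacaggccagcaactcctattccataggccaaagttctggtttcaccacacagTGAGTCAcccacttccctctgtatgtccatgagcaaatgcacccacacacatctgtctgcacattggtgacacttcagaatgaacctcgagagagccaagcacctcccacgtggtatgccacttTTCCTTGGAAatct

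The primed regions had a basal median of 52.0 tags of H3K4me2 and 7.34 of H3K27ac, as the rule required, against 70.1 and 94.3 in active regions. They also held little Pol II, a mark the rule did not use, with a median of 6.33 tags over the group means against 31.4 in active regions and 3.16 in regions below both limits. By library, the primed regions' median Pol II lay between 4.29 and 7.49 tags at basal and between 5.13 and 6.00 at 24 h, so the groups overlapped. Median H3K27ac was 6.78 and 6.42 tags in the basal libraries and 6.79 and 6.56 at 24 h. Median H3K4me2 was 51.5 and 52.8 tags at basal and 38.7 and 26.4 at 24 h, lower in both IL-4 libraries. In active regions the median group mean also went down, from 70.1 to 41.6 tags, and in regions below both limits it was 10.4 and 10.2. The share of H3K4me2 tags inside the 67742 regions was 37.1% and 37.2% in the basal libraries and 27.2% and 18.9% at 24 h, and its part in the difference was not tested. Because the regions were selected on high basal H3K4me2 in these libraries, the difference is given with no test.

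**Figure D1:**
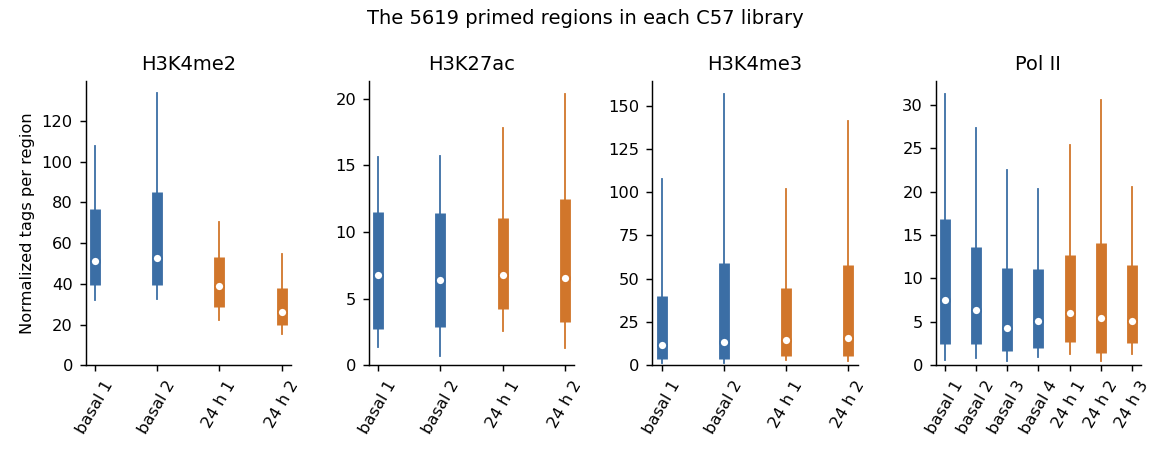
Normalized tags per primed region (y axis) in each C57 library (x axis) for H3K4me2, H3K27ac, H3K4me3 and Pol II, basal in blue and 24 h IL-4 in orange. Circles are medians over the 5619 regions, thick bars the middle quartiles and thin lines the 10th to 90th percentiles; medians of H3K27ac and Pol II overlap between conditions, while both 24 h H3K4me2 medians (38.7 and 26.4) are below the basal ones.

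Next to the thresholds the selection is arbitrary. The regions just inside and just outside the H3K4me2 limit had 32 and 31.985 tags, those around the H3K27ac limit 15.985 and 16, and 709 and 513 primed regions lay within 10% of the respective limit. A stricter class of 1251 regions, with at least 64 tags of H3K4me2 and under 8 of H3K27ac, is used below as an alternative.

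By the authors' annotation 2646 primed regions (47.1%) were intronic, 2039 (36.3%) intergenic and 502 (8.93%) exonic, against 3.98% exonic among all non-promoter regions. A further 186 lay in 5′ UTRs, 82 in 3′ UTRs, 126 at transcription termination sites and 35 in non-coding transcripts. The last 3 had no annotation and lie on the mitochondrial chromosome, whose DNA is not packaged in nucleosomes. For all 5619 the median distance to the start of a protein-coding gene was 11.2 kb, against 16.95 kb for active regions and 25.3 kb for regions below both limits, and 13.1% lay within 1 kb of one although none was annotated promoter-TSS.

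The primed regions were not uniform in H3K4me3. The median basal group mean was 13.5 tags, and the 10th and 90th percentiles were 1.82 and 132 tags. In 1887 regions it reached 32 tags and in 3732 it did not. Regions with more H3K4me3 had more CpG dinucleotides and lay closer to gene starts, in every step of a series of 7 levels. Below 4 tags the median ratio of observed to expected CpG in the central 200 bases was 0.202 and 0.563% of 1422 regions lay within 1 kb of a gene start. In the highest level the ratio was 0.765, and 44.9% of 586 regions lay within 1 kb. The levels share base composition and distance, so this is a description across regions. In the 1887 regions with at least 32 tags, median GC content was 63.0% and the CpG ratio 0.664, against 51.5% and 0.290 in the others. Regions of the stricter class had a median of 71.7 tags of H3K4me3.

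**Figure D2:**
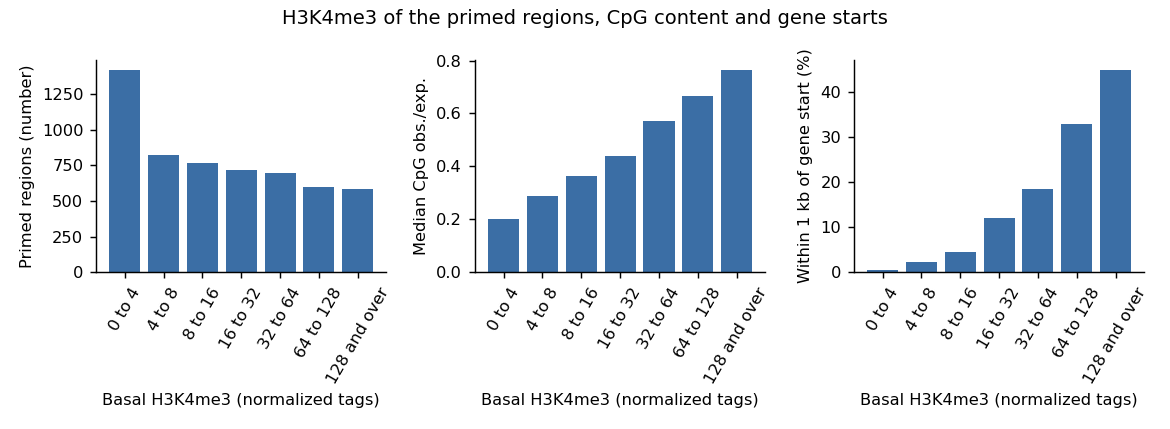
Primed regions grouped by basal H3K4me3 (x axis, normalized tags), with the number of regions, the median observed to expected CpG ratio and the percentage within 1 kb of a protein-coding gene start as bar heights. The ratio rises from 0.202 to 0.765 and the percentage from 0.563% to 44.9% between the lowest and highest levels.

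The question of which primed regions became acetylated was addressed with fold thresholds based on those of the study's methods, which ask for a change of 2.5-fold in H3K27ac and Pol II together. Here each mark was taken alone, with at least 2.5-fold between group means plus 1, at least 16 tags of H3K27ac in either group and no overlap between libraries. By these thresholds 240 of 5619 primed regions (4.27%) gained H3K27ac at 24 h, where 3.25% of all regions and 5.97% of regions below both limits did. No primed region could be called lower, since all started below 16 tags, and 7.12% of all regions were. Over all primed regions the median log2 fold was 0.19, and over all regions -0.28. These values come from the contrast that chose the regions and carry no test, and without the mitochondrial regions the count was 237. After scaling by median ratios it was 376. The 240 are called acetylated regions below.

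The region with the largest rise of the mean was intergenic, 15.9 kb downstream of the start of Ear14, a gene of the eosinophil-associated ribonuclease family. Its H3K27ac was 4.75 and 17.8 tags at basal, 67.3 and 49.9 at 1 h, 116 and 186 at 6 h, and 226 and 255 at 24 h. Every later time was above basal in both libraries, and H3K4me2 stayed between 27.77 and 38 tags. A region 11.9 kb from the start of Ang2, a ribonuclease gene of the same cluster on chromosome 14, went from 8.82 and 18.5 tags to 211 and 200.

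Near Socs1, which encodes an inhibitor of JAK kinase signalling, and the adjacent Rmi2, which encodes a subunit of a DNA recombination complex, the rise came earlier. The region at the 3′ end of Rmi2 had 10.9 and 8.56 tags at basal, 234 and 64.4 at 1 h, 339 and 316 at 6 h, and 266 and 188 at 24 h. The exonic Socs1 region had 12.2 and 3.57 tags at basal, 328 and 122 at 1 h, 311 and 262 at 6 h, and 211 and 120 at 24 h. In both regions the 6 h libraries were above the 24 h libraries, while in the Ear14 region both 24 h libraries were above both 6 h libraries. The region in the 5′ UTR of Tmem26, which encodes a membrane protein and is a gene induced in alternative activation, went from 6.78 and 2.85 tags to 323 and 94.5 at 24 h. Its H3K4me3 was 70.6 and 53.2 tags at basal and 263 and 225 at 24 h.

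The others among the 10 largest rises were at -38.3 kb from the start of Inpp5a, an inositol phosphatase gene (a negative distance is upstream; 4.75 and 27.1 tags to 151 and 298), at -15.6 kb from Prkrip1 (21.7 and 7.84 to 193 and 230), at -77.1 kb from Stt3b, an oligosaccharyltransferase subunit gene (6.11 and 7.84 to 174 and 154), and at 136 kb from Auh (10.85 and 17.1 to 137 and 165). The 9th was mitochondrial DNA, chrM:154-1154, with 30.5 and 1.43 tags at basal and 46.7 and 298 at 24 h. Its 24 h libraries lay farther apart than those of the other 9.

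**Figure D3:**
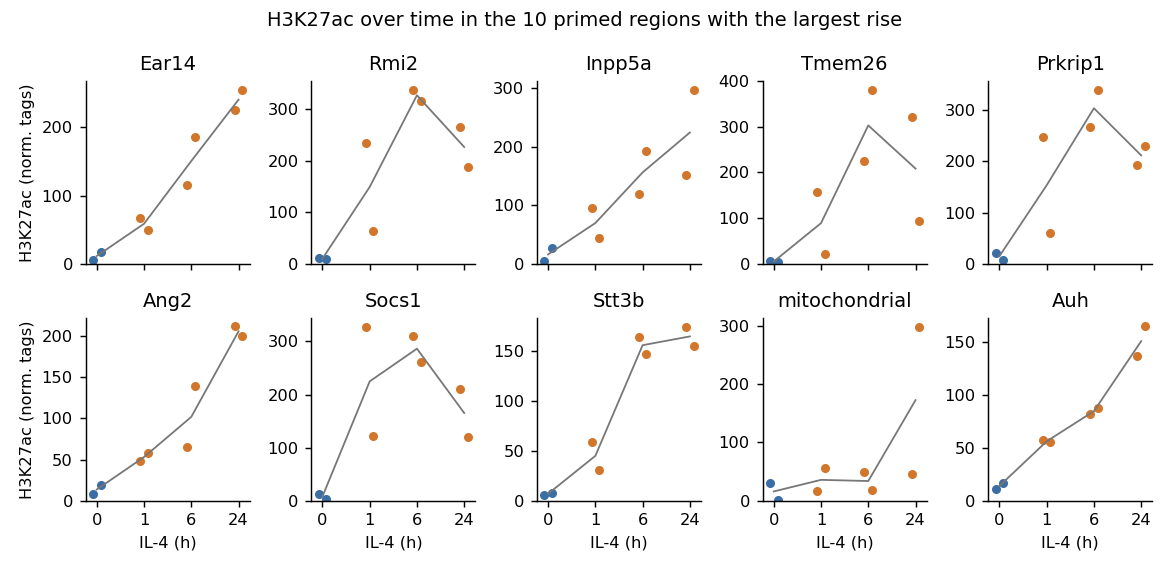
H3K27ac (y axis, normalized tags) in each C57 library at 0 (blue), 1, 6 and 24 h of IL-4 (orange, evenly spaced on the x axis) for the 10 primed regions with the largest rise of the mean, named by the nearest gene, with a line through the means. The Rmi2, Socs1, Prkrip1 and Tmem26 regions have their highest mean at 6 h and the Ear14, Ang2, Inpp5a, Stt3b and Auh regions at 24 h; the mitochondrial region rests on 1 library at 298 tags.

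All 5619 primed regions were matched to the time course table by centres within 500 bp. By the same thresholds 111 primed regions (1.98%) were higher at 1 h, where 1.54% of all 77955 regions were, 377 (6.71%) were higher at 6 h against 5.52%, and 236 (4.20%) were higher at 24 h against 3.55% of this table. The times share the basal libraries. At 1 h the replicates differed widely, with 44.0% and 20.5% of tags inside regions. The direct comparison of 24 h with 6 h, which does not use the basal libraries, was tested with limma (Benjamini-Hochberg over all regions, adjusted p under 0.05). It called 0 primed regions, where 0.0731% of all regions were called higher and 0.0% lower. The unadjusted p was under 0.05 in 417 of the 5619 primed regions and in 4103 of all 77955 regions. Neither edgeR nor DESeq2 called any primed region (0 each). Over all regions edgeR called 31 higher and 0 lower, and DESeq2 57 and 6. The median log2 difference was 0.17 over the primed regions and -0.08 over all regions. For the Rmi2 region it was -0.55 (SE 0.61, adjusted p = 0.968 by limma) and for the Ear14 region 0.71 (SE 0.61, adjusted p = 0.968 by limma), so the different shapes of their time courses were not distinguished from the spread between libraries.

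Pol II was measured in libraries the rule did not use. At 24 h limma called 18 primed regions higher (0.320%) and 0 lower, against 0.223% of all regions higher and 0.096% lower, so the share was near that of all regions. With replicate numbers as a block the number was 29. The calls depended on single libraries and were 0 without 24 h replicate 1 or 24 h replicate 2, between 3 and 9 without basal replicate 2, 3 or 4, and 41 higher with 2 lower without basal replicate 1. In the 240 regions that gained H3K27ac, basal replicate 1 had a median of 11.5 tags of Pol II, against 7.22, 4.29 and 5.06 in basal replicates 2, 3 and 4 and 18.7, 15.5 and 12.8 at 24 h. It was the highest basal library in 129 of the 240 (53.8%), and in 35.95% of the other primed regions. Its part in the results was not tested beyond leaving it out.

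Of the 18 regions called, 17 were among the 240 that gained H3K27ac. In those 240, 230 (95.8%) had a positive limma log2 fold of Pol II, with a median of 0.91, while 42.7% of the other 5379 did, with a median of -0.09. By the fold thresholds with 8 tags, 53 primed regions rose in Pol II and 17 fell without overlap, where 1.03% and 1.05% of all regions did, and 44 of the 53 had gained H3K27ac.

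The Socs1 region had the largest rise of the mean, from 11.9, 22.5, 12.9 and 13.2 tags to 189, 516 and 65.4. The 24 h libraries were all above the basal ones, though they differed widely among themselves (log2 fold 3.58, SE 0.53, adjusted p = 0.0105 by limma). Its single 1 h library had 519 tags and the 6 h libraries 220 and 201. The Rmi2 region had 30.0, 2.41, 2.14 and 2.03 tags at basal and 104, 165 and 64.1 at 24 h (log2 fold 4.21, SE 0.68, adjusted p = 0.0162 by limma). Only basal replicate 1 was above 3 tags. A region 7.82 kb downstream of the start of Bhlhe40, a transcription factor gene, went from 41.2, 30.5, 8.04 and 13.2 tags to 289, 121 and 137 (log2 fold 3.06, SE 0.50, adjusted p = 0.0162 by limma). Its H3K27ac went from 6.11 and 2.14 tags to 22.1 and 17.7, which passed the H3K27ac thresholds. The Tmem26 region, from 51.8, 22.5, 3.75 and 5.06 tags to 211, 224 and 60.3, and an intronic region of Il6st, the gene of the shared receptor subunit gp130, from 24.3, 56.97, 38.05 and 50.6 tags to 222, 105 and 110, did not overlap between conditions and did not pass the test (adjusted p = 0.0506 and 0.0704 by limma).

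The regions with the largest falls of the mean were in introns of Vegfa and Pdgfb, growth factor genes, and near Psd3, in a region annotated as intergenic. The Vegfa region had 90.5, 36.9, 29.5 and 25.3 tags of Pol II at basal and 10.7, 11.4 and 14.1 at 24 h. The groups did not overlap, and none of the 3 passed limma (adjusted p = 0.146, 0.182 and 0.150). At 6 h limma called 28 primed regions higher (0.498%) and 2 lower, against 0.428% and 0.137% of all regions, from the same basal libraries; without basal replicate 1 it called 108 higher and 20 lower, without basal replicate 3 or 4 it called 13 and 10 higher, and without either 6 h library 0 higher. Without basal replicate 2, or without 24 h replicate 1, which shares the estimate of the spread, it called 19. By the fold thresholds 116 primed regions had higher Pol II at 6 h (2.06%), where 2.21% of all regions did. Of all 77955 regions 1493 were lower, among them 45 primed regions.

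For H3K4me3 at 24 h limma called 0 primed regions and 0 of all regions (0.0% higher and 0.0% lower). The unadjusted p was under 0.05 in 389 of the 5619 primed regions and in 13232 of all 67742 regions. By edgeR 11 primed regions were higher and 0 lower, against 130 and 55 of all regions. By DESeq2 13 were higher and 3 lower, against 143 and 139 of all regions. By the fold thresholds 59 primed regions rose and 4 fell without overlap, where 0.627% and 0.162% of all regions did. Of those 59, 35 had gained H3K27ac. The Il6st region went from 13.8 and 47.8 tags of H3K4me3 to 166 and 207, and the Socs1 region from 147 and 154 to 422 and 461. In both, the 24 h libraries were above the basal ones. In H3K4me2 the fold thresholds gave 0 primed regions higher and 117 lower, where 0.375% and 1.26% of all regions passed, and these values come from the mark that chose the regions. Among the 240 regions that gained H3K27ac, 2 were lower in H3K4me2, and their median log2 fold was -0.23 against -0.80 in the other primed regions.

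Factor binding was taken from 1 peak list per group, so the shares have no replicate check and intervals cover counting error only. PU1 had a peak in 55.6% (95% exact interval 54.3 to 56.9) of primed regions at basal and 57.6% (56.3 to 58.9) at 24 h, below the 84.7% and 85.4% of active regions. CEBPb went from 16.3% to 31.1% of primed regions, with lists of 18043 and 37499 peaks, and from 23.9% to 42.5% of all non-promoter regions. STAT6 had a peak in 23.4% at basal, 17.6% at 1 h, 18.3% at 6 h and 31.4% at 24 h. Its lists held 30589, 24376, 23884 and 39537 peaks and its shares of all non-promoter regions were 38.6%, 32.1%, 33.8% and 47.9%, so the primed regions lay below them and moved in the same order. EGR2 went from 7.05% to 12.2% at 1 h, 12.2% at 6 h and 30.5% at 24 h, and PPARg from 5.32% to 30.8% at 24 h. The lists grew as well, from 8437 to 29407 peaks for EGR2 and from 7627 to 39088 for PPARg, and the share of all non-promoter regions with a peak went from 8.49% to 32.9% and from 9.47% to 40.7%.

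The regions that gained H3K27ac differed from the other primed regions in the factors they held at 24 h. STAT6 had a peak in 74.6% (68.6 to 80.0) of the 240, against 29.4% (28.2 to 30.7) of the others. The values were 60.8% against 29.2% for EGR2, 58.8% against 29.8% for CEBPb, 57.1% against 29.6% for PPARg and 74.2% against 56.9% for PU1. At basal the STAT6 shares were 29.6% (23.9 to 35.8) and 23.1% (21.97 to 24.2), with overlapping intervals. Intervals also overlapped at basal for PU1 (60.8% and 55.4%) and PPARg (8.33% and 5.19%). They did not for EGR2, at 20.8% (15.9 to 26.5) and 6.43% (5.79 to 7.12), or for CEBPb, at 29.6% (23.9 to 35.8) and 15.7% (14.7 to 16.7). Of the 740 primed regions with a STAT6 peak at 24 h and none at basal, 14.7% gained H3K27ac, against 6.85% of 1022 with a peak at both and 1.68% of 3566 with none. For EGR2 the order was the reverse, with 7.29% for a peak only at 24 h and 12.8% for a peak at both. The respective values were 9.45% and 4.97% for PU1, 8.50% and 7.68% for CEBPb and 8.16% and 6.56% for PPARg. The share that gained rose with the number of factors bound at 24 h, from 1.07% of 1303 regions with none to 18.1% of 348 with all 5. Regions with more factors also had more basal H3K27ac, a median of 3.14 tags with none and 10.2 with all 5.

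EGR2 followed another order across the H3K4me3 split. At 24 h its peaks were in 34.7% (32.6 to 36.9) of the primed regions with at least 32 tags of H3K4me3 and 28.4% (26.9 to 29.9) of the others. They were in 32.9% of all non-promoter regions and 38.5% of all regions. The other 4 factors had peaks less often in the H3K4me3-rich regions, at 8.53% against 42.9% for STAT6, 13.9% against 39.7% for CEBPb, 17.9% against 37.3% for PPARg and 35.8% against 68.7% for PU1. EGR2 binds a GC-rich motif, and its letters GCGTGGG, searched on both strands, were in the central 200 bases of 6.78% (5.69 to 8.01) of the H3K4me3-rich regions, 2.89% (2.38 to 3.48) of the other primed regions and 3.06% of all regions. Median GC content was 63.0% in the H3K4me3-rich regions and 51.5% in the other primed regions, and the part of base composition in the matches was not tested. The STAT6 letters, TTCNNNNGAA, were in 13.3% (9.30 to 18.3) of the 240 regions that gained H3K27ac, 3.402% (2.93 to 3.92) of the other primed regions and 4.73% of all regions. The AP-1 letters TGANTCA were in 22.5% (17.4 to 28.3) of the 240, 13.3% (12.4 to 14.2) of the others and 16.9% of all regions. The C/EBP letters TTGCNNAA were in 17.1% of the acetylated regions, 10.8% of the other primed regions and 11.9% of all regions. For the PU1 letters GAGGAAGT the shares were 4.17% (2.02 to 7.53), 7.34% (6.66 to 8.07) and 8.42%. The EGR2 letters were in 3.75% (1.73 to 7.00) of the acetylated regions and 4.22% (3.70 to 4.79) of the other primed regions. A match is a description of the sequence and not a measured site.

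**Figure D4:**
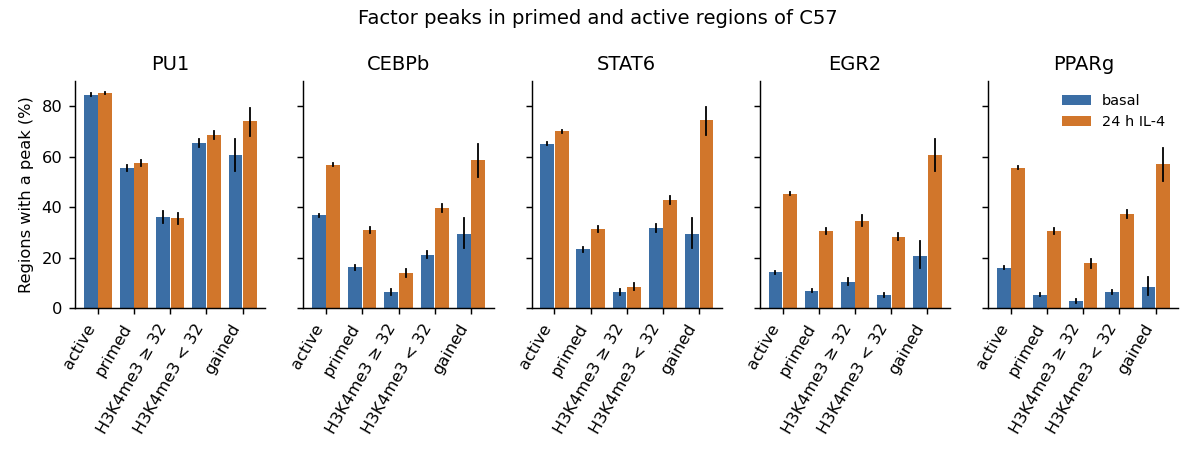
Percentage of C57 regions with a peak of each factor (y axis) at basal (blue) and 24 h of IL-4 (orange) in active regions, all primed regions, primed regions by basal H3K4me3 and primed regions that gained H3K27ac; black lines are 95% exact binomial intervals for counting error only. STAT6 at 24 h is in 74.6% of the regions that gained H3K27ac and 8.53% of the H3K4me3-rich regions, where EGR2 is in 34.7%.

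The other strains gave a test of H3K27ac in libraries that did not choose the regions. Of the 5619 primed regions, 3353 (59.7%) had a region of the BALB table with a centre within 500 bp, 4181 (74.4%) of NOD, 3432 (61.1%) of PWK and 2874 (51.1%) of SPRET. The same basal limits were met by 65.0% of the BALB matches, 53.96% of the NOD, 52.5% of the PWK and 45.6% of the SPRET matches. They held at least 16 tags of H3K27ac in 19.4%, 24.6%, 35.3% and 32.2% respectively. Of 1881 regions matched in all 4 strains, 427 (22.7%) were primed in all 4 and 313 (16.6%) in none.

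At 24 h limma called 62 matched primed regions higher in H3K27ac in BALB (1.85%) and 7 lower, where 1.6% and 0.653% of all BALB regions were called. In NOD it called 3 higher (0.0718%) and 0 lower, against 0.0566% and 0.0% of all regions. The unadjusted p was under 0.05 in 357 of 4181 matched primed regions and in 8578 of all 68932 NOD regions. By edgeR 12 primed regions were called higher and by DESeq2 53, against 79 and 930 of all NOD regions. In PWK limma called 15 higher (0.437%) and 0 lower, against 0.487% and 0.0482%, and in SPRET 41 higher (1.43%) and 3 lower, against 0.994% and 0.192%. These shares were near those of all regions. Single libraries decided many calls. In NOD, PWK and SPRET no primed region was called when either 24 h library was left out. Leaving out basal replicate 1 gave 77 higher and 6 lower (NOD), 31 and 1 (PWK) or 9 and 0 (SPRET). Leaving out basal replicate 2 gave 55 and 13 (NOD), 69 and 11 (PWK) or 20 and 0 (SPRET). In BALB, the number higher was 24 without basal replicate 1, 45 without basal replicate 2, 34 without 24 h replicate 1 and 39 without 24 h replicate 2. The share of H3K27ac tags inside regions was 57.1% and 28.7% in these 24 h libraries. Scaled by median ratios, BALB had 76 higher and 1 lower, NOD 0, PWK 5 and SPRET 33 higher. Over all regions the scaled values gave 1130 higher and 366 lower in BALB, 0 in NOD, 93 higher in PWK and 413 higher in SPRET. That scaling moved the median log2 fold over all regions from -0.30 to 0.02 (BALB), -0.20 to 0.01 (NOD) and -0.18 to 0.02 (PWK). The primed regions' medians moved with it, from -0.02 to 0.27 (BALB), 0.03 to 0.22 (NOD) and -0.06 to 0.13 (PWK).

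The calls concentrated in the regions that had gained H3K27ac in C57. Of the BALB calls 54 of 62 were such regions, of the NOD calls all 3, of the PWK calls all 15 and of the SPRET calls 34 of 41. Of these regions, 183 of 189 matched in BALB had a positive log2 fold (96.8%), as did 203 of 208 for NOD (97.6%), 183 of 192 for PWK (95.3%) and 144 of 152 for SPRET (94.7%). Their median log2 folds were 1.41, 1.46, 1.18 and 1.15. The log2 fold was positive in 46.0% (BALB), 48.96% (NOD), 44.0% (PWK) and 53.5% (SPRET) of the other matched primed regions. By number of strains, 64 primed regions were called higher in 1, 14 in 2, 7 in 3 and 2 in all 4, the Pim3 and Inpp5a regions.

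Strain Pol II was compared by the fold thresholds. In the BALB libraries 175 matched primed regions were higher (5.22%) and 10 lower, where 4.2% and 0.733% of all regions were. NOD had 118 higher (2.82%) and 21 lower, against 2.25% and 1.14%. PWK had 79 higher (2.30%) and 22 lower, against 2.26% and 0.731%. SPRET had 54 higher (1.88%) and 8 lower, against 1.41% and 0.721%. The regions acetylated in C57 made up 77, 65, 52 and 35 of the regions with higher Pol II in BALB, NOD, PWK and SPRET.

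The Pim3 region, at -6.55 kb from the start of a gene for a serine/threonine kinase, had 2.71 and 9.27 tags of H3K27ac in basal C57 and 59.4 and 99.1 at 24 h. BALB libraries went from 6.61 and 6.55 tags to 109 and 75.8 (log2 fold 3.60, SE 0.57, adjusted p = 2.25e-07 by limma). NOD libraries went from 6.65 and 4.76 to 164 and 111 (log2 fold 4.36, SE 0.55, adjusted p = 0.0454 by limma). PWK libraries went from 17.2 and 10.96 to 126 and 151 and SPRET libraries from 9.40 and 6.58 to 113 and 106 (adjusted p = 0.00674 and 0.000422 by limma). In every strain both IL-4 libraries were above both basal libraries. Its Pol II in C57 went from 21.8, 3.21, 0.540 and 3.04 tags to 31.4, 49.2 and 23.1, which did not pass the test (adjusted p = 0.109 by limma).

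The Inpp5a region differed in its starting level. Basal H3K27ac was 11.02 and 18.5 tags (BALB), 11.6 and 15.1 (NOD), 15.5 and 57.9 (PWK) or 43.6 and 107 (SPRET), so that it was not primed by the mean in PWK or SPRET. The 24 h values were 144 and 111 tags (BALB), 177 and 225 (NOD), 296 and 255 (PWK) or 295 and 284 (SPRET). The log2 fold was 2.07 (SE 0.40, adjusted p = 0.0162 by limma) in SPRET and 3.81 (SE 0.52, adjusted p = 0.0454 by limma) in NOD, and the difference between strains was not tested. The Rmi2 region had log2 folds of 4.23, 4.73, 4.28 and 4.67 in BALB, NOD, PWK and SPRET, with adjusted p of 1.14e-08, 0.0501, 0.00162 and 0.000209 by limma. Regions at -70.3 kb from 1700021F07Rik, with 6.11 and 7.13 tags at basal and 126 and 119.5 at 24 h in C57, and in an intron of Fam20b, which encodes a xylose kinase, with 8.14 and 4.99 tags and 114 and 78.8, were called in 3 strains each.

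Factor peaks in the matched primed regions differed between the strains' lists. STAT6 had a peak in 18.6% of them in BALB, 18.9% in NOD, 40.97% in PWK and 39.7% in SPRET at 24 h, and in 10.3%, 17.9%, 15.5% and 30.4% at basal. In the matched regions that were acetylated in C57 the 24 h shares were 54.5%, 52.4%, 76.6% and 75%. EGR2 peaks went from 35.6% to 41.96% in BALB, 6.12% to 18.9% in PWK and 14.405% to 43.4% in SPRET, but in NOD from 27.5% to 18.9%. Over all non-promoter regions the strains' lists moved alike, with EGR2 in NOD going from 22.2% to 14.7%, and STAT6 at 24 h in 33.1% (BALB), 31.3% (NOD), 54.8% (PWK) and 52.0% (SPRET). Each list is 1 per strain and condition, and the differences were not tested.

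**Figure D5:**
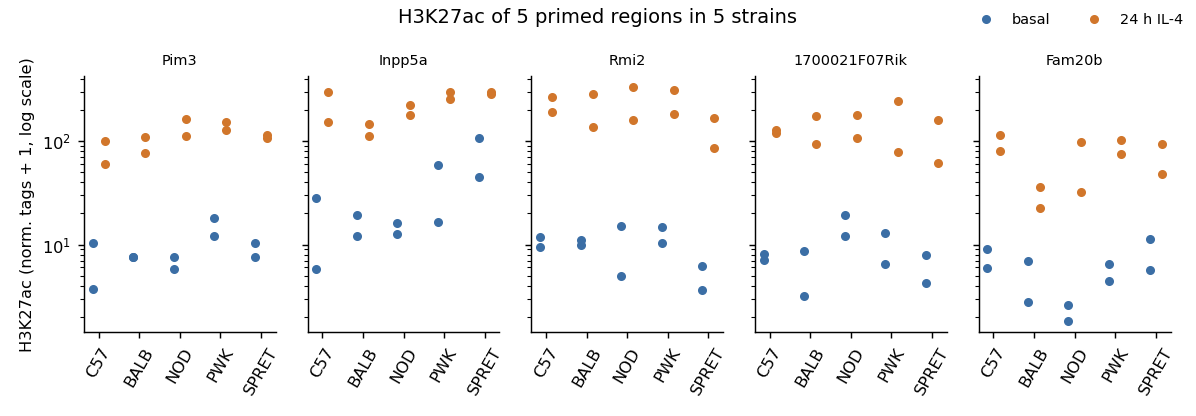
H3K27ac plus 1 (y axis, normalized tags on a log scale) in each library of 5 strains (x axis), basal in blue and 24 h IL-4 in orange, for the 5 primed regions called in the most other strains, named by the nearest gene. In each region and strain both 24 h libraries lie above both basal libraries, and basal values of the Inpp5a region reach 107 tags in SPRET.

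EGR2 tags were also counted in C57 at 30675 EGR2 sites, of which 1660 lay in primed regions. By the 2.5-fold threshold without overlap 8 of them rose at 1 h, 65 at 6 h and 156 at 24 h. These were 0.482%, 3.92% and 9.40% of the sites, against 0.632%, 5.38% and 10.3% of all sites. The times share the basal libraries. Median EGR2 tags at the 1660 sites were 18.7 and 24.2 at basal, 9.03 and 24.1 at 1 h, 19.2 and 33.6 at 6 h and 38.6 and 29.8 at 24 h. The 24 h libraries were above the basal ones, and the 1 h replicates differed widely.

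The effect of Egr2 deletion was measured at 4677 sites of EGR2 binding gained with IL-4, of which 264 lay in 263 primed regions. Median H3K27ac at these 264 sites was 15.1 and 15.4 tags in Egr2 fl/fl at 24 h and 10.4 and 9.87 in LyzM-Cre Egr2 fl/fl. At basal it was 12.8 and 10.9 in Egr2 fl/fl and 9.03 and 9.53 in LyzM-Cre Egr2 fl/fl, so the genotypes also differed in order before IL-4. Limma called 45 sites lower (17.05%) and 2 higher in LyzM-Cre Egr2 fl/fl at 24 h, where 23.2% of all sites were called lower and 1.41% higher. Of 39 sites in primed regions that gained H3K27ac in C57, 14 were called lower (35.9%), and of 225 in the others 31 (13.8%). The share with a negative log2 fold was alike, 29 of the 39 (74.4%) and 173 of the 225 (76.9%), with medians of -0.70 and -0.48. The difference between the 2 sets was not tested. The median log2 fold over the 264 sites was -0.53 and over all sites -0.50, and it was -0.08 and -0.03 when each library was scaled by its median ratio. Under that scaling 17 of the 264 sites were lower and 8 higher, where 498 and 538 of all 4677 sites were. DESeq2 called 6 of the 264 lower and 7 higher, where it called 295 and 440 of all sites. Without Egr2 fl/fl 24 h replicate 1 or 2, the calls were 13 lower and 0 higher and 14 lower and 2 higher, and without LyzM-Cre Egr2 fl/fl 24 h replicate 1 they were 25 lower and 0 higher.

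The largest fall of the mean, though the smallest of the 3 named sites on the log2 scale, was at a site in an intron of Dlgap4, chr2:156726046-156727046 (mm10). It had 62.2 and 49.6 tags of H3K27ac in basal Egr2 fl/fl cells and 151 and 189 at 24 h, and 24.1 and 31.95 in basal LyzM-Cre Egr2 fl/fl cells and 54.0 and 58.0 at 24 h. The genotypes did not overlap in either condition (log2 fold at 24 h -1.58, SE 0.25, adjusted p = 0.000559 by limma). CEBPb tags there were 24.8 and 27.6 in Egr2 fl/fl at 24 h and 4.75 and 2.14 in LyzM-Cre Egr2 fl/fl. An exonic site of Rgcc, a cell cycle regulator gene (chr14:79300578-79301578), had 129 and 101 tags of H3K27ac in Egr2 fl/fl and 27.01 and 30.2 in LyzM-Cre Egr2 fl/fl at 24 h (log2 fold -1.96, SE 0.33, adjusted p = 0.000674 by limma). Its H3K4me2 was 168 and 200 tags in Egr2 fl/fl and 281 and 292 in LyzM-Cre Egr2 fl/fl at 24 h, higher where H3K27ac was lower. A site in an intron of 1700061G19Rik (chr17:56883404-56884404) had 94.5 and 113 tags against 18.7 and 20.9 (log2 fold -2.33, SE 0.31, adjusted p = 0.000167 by limma).

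Across the 264 sites, H3K4me2 overlapped between genotypes at 24 h, with medians of 53.7 and 67.4 tags in Egr2 fl/fl and 53.1 and 65.8 in LyzM-Cre Egr2 fl/fl. Median CEBPb tags in the 300 bp around the sites were 16.3 and 13.8 in Egr2 fl/fl and 4.75 and 7.51 in LyzM-Cre Egr2 fl/fl at 24 h, which did not overlap. For STAT6 the 24 h medians at the 264 sites were 9.34 and 7.08 against 6.19 and 4.51. For PPARg they were 5.12 and 9.45 against 2.09 and 0, and for PU1 14.6 and 16.7 against 13.4 and 12.1. Over all sites they were 8.71 and 7.08 against 4.12 and 3.38 for STAT6. The values were 6.14 and 9.45 against 2.78 and 0 for PPARg and 15.4 and 16.7 against 10.0 and 10.6 for PU1. Pol II had 1 library per genotype, with 24 h medians of 9.36 and 6.65 tags at the 264 sites and 11.9 and 7.99 over all sites.

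Gene lists show where the primed regions lay. Of 28 genes of the IL-4 response, 14 had a primed region within 50 kb of their start. They had 26 such regions, of which 6 gained H3K27ac, near Egr2, Tmem26, Socs1, Irf4, Cdh1 and Batf3, and 1 was called for Pol II by limma, the Socs1 region. The 26 had a median log2 fold of H3K27ac of 0.50, against 0.19 in all primed regions. The medians near interferon-stimulated genes (0.40), stromal and epithelial genes (0.40) and granulocyte and mast cell genes (0.33) were also above 0.19. Ccl17 and Ccl22, chemokine genes with 4 and 3 primed regions, had none that gained, and the highest 24 h means there were 25.5 and 8.19 tags. Of 20 inflammatory genes 9 had 13 primed regions, of which 2 gained, both within 50 kb of Ccl2. The higher of these was at -24.7 kb from Ccl2 and went from 2.71 and 14.3 tags to 14.43 and 54.5. Of 18 interferon-stimulated genes 10 had 15 primed regions, and 3 gained, all of them within 50 kb of Usp18, a gene with 7. The one with the highest 24 h mean lay in an intron of Tuba8 and went from 14.9 and 6.42 to 45.0 and 17.1 tags. None of the 4 regions near 2 of 15 macrophage genes, 9 near 6 of 12 lymphocyte genes, 10 near 2 of 10 granulocyte and mast cell genes, 5 near 4 of 8 dendritic cell genes or 4 near 3 of 8 stromal and epithelial genes gained H3K27ac, where 4.27% of all primed regions did.

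Basal H3K4me3 reached 32 tags in 33.6% of all primed regions and in 9 of the 26 near IL-4 response genes. It did so in 4 of the 9 near lymphocyte genes, including both near Gata3, in 2 of the 10 near granulocyte and mast cell genes, both near Gata2, in 0 of the 5 near dendritic cell genes and in 1 of the 4 near stromal and epithelial genes. Gata3 and Gata2 encode transcription factors of T cells and of mast cell precursors. Near Elane, a neutrophil protease gene, the primed region with the highest 24 h mean had 12.89 and 9.98 tags of H3K27ac at basal and 17.8 and 15.8 at 24 h in C57. The regions near Cd79a (10.9 and 8.56 to 5.94 and 14.44 tags, in an intron of Arhgef1), Zbtb46 (19 and 2.85 to 39.9 and 5.25) and Col1a1 (6.78 and 14.97 to 10.2 and 11.8) overlapped between conditions.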

How the data were processed

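ChIP-seq of BMDMs from female mice was analysed from the deposited tables and peak lists. Per the methods, the authors mapped reads with Bowtie2 to each strain's genome, shifted them to mm10 and counted tags with HOMER in 1000 bp around accessible peaks, so the deposited signal values are tags scaled to a common library size. The peak score values in the deposited lists were made by the authors' peak calling, per the methods with IDR on replicates. For PPARg and for EGR2 outside C57 the column is headed score rather than idrScore, and how it was made is not stated. Scores served only to rank peaks. The lists hold 1 set per group.

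Members, gene lists and tests were chosen with earlier results of these data known. Tags were tested as log2(tags + 1) with limma 3.58.1 (moderated test, Benjamini-Hochberg over all regions, threshold 0.05), fold changes are on that scale and understate low regions. Whole reads were recovered from 100% of the values used, and edgeR 4.0.16 and DESeq2 1.42.0 were run on them as alternatives (R 4.3.3, Python 3.11.15). Library totals ran from 4691644 to 29050468 tags (median 12936233), and the 79 replicate pairs differed by a chi-square of 2.01 to 17.5 per degree of freedom. C57 H3K27ac and H3K4me2 at 24 h against basal chose the regions and were not tested. Other strains were matched by centres within 500 bp. Peaks overlapping a region counted as bound, with 95% exact intervals that cover counting error only. The p-values measure the spread between libraries, which the methods call biological replicates. For C57 Pol II at 24 h, the deviations of same-numbered libraries correlated at r = 0.118, 0.240 and 0.207, and at 6 h at 0.071 and 0.254. In H3K27ac of NOD, PWK, BALB and SPRET r was 0.492, 0.441, 0.435 and 0.261. It was 0.250 for C57 H3K4me3, 0.014 for H3K27ac from 6 to 24 h and 0.113 for the Egr2 deletion. The labels do not say that a replicate number marks a shared batch or animal. The main tests did not pair libraries, and counts with the replicate number as a block are given below.

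Sequence and gene starts came from GRCm38 and GENCODE annotation. Named regions were the 10 largest rises of mean H3K27ac among the 240, the 5 largest rises and 3 largest falls of Pol II without overlap, the 5 called in the most strains, the highest 24 h mean in each gene list (1 of these is not reported here), and the 3 largest falls after Egr2 deletion. The 3 sequences were chosen for their STAT6 match. Scripts were tested on simulated data. 4 columns of values matched no label and were left out.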

Additional observations from a re-analysis of the deposited data

Results flagged for a closer look

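In basal Pol II, 1 of 4 C57 libraries stood apart in 4 named regions. Replicate 1 was the high library in the Rmi2 region, at 29.95 tags against 2.41, 2.14 and 2.03, and in the Pim3 region, at 21.84 against 3.21, 0.540 and 3.04. Replicate 2 was high in the Socs1 region at 22.47 tags, and replicate 4 in the 1700021F07Rik region at 7.09. Chance flags about 1 in 20 such groups.

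At 3 regions H3K27ac differed in opposite directions between strains, with the 24 h libraries all on one side of the basal ones in each strain named. All named regions were searched, and with 2 libraries per condition such separation arises often by chance. The differences between strains were not tested, and none of these regions passed limma within BALB, NOD, PWK or SPRET (adjusted p = 0.526 and 0.813 for Tuba8 in BALB and PWK, 0.564, 0.686 and 0.582 for Elane in BALB, NOD and PWK, and 0.785, 0.914 and 0.932 for Sgca in BALB, PWK and SPRET). Tuba8 had higher values after IL-4 in C57 and BALB and lower ones in PWK, where it went from 24.03 and 25.06 tags to a mean of 16.335. Elane had higher values in C57 and lower ones in BALB, NOD and PWK, and in BALB it went from 34.54 and 26.21 tags to a mean of 15.525. Sgca had higher values in SPRET, from 21.37 and 23.71 to 24.68 and 25.85 tags, and lower ones in BALB, from 16.17 and 17.28 to a mean of 11.205, and in PWK.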

How the results depend on the processing

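Apart from leaving out libraries, 44 of the recomputed values stayed within the limits set for them, 51 moved and 1 turned direction. The causes were not tested. The stricter class holds fewer regions, 1251 in C57 and 588, 819, 632 and 555 matched in BALB, NOD, PWK and SPRET. It has 53 sites for the Egr2 deletion. Calls in it were compared as counts, so a smaller count there need not be a lower share. Pol II at 24 h, 18 calls, became 28 with median-ratio scaling, 29 with the replicate block, 29 with edgeR, 51 with DESeq2 and 4 in the stricter class. Pol II at 6 h, 30 calls, became 59 with DESeq2 and 5 in the stricter class. The calls over all regions moved too. For Pol II at 24 h, 151 higher and 65 lower became 292 and 105 with scaling, 309 and 77 with edgeR and 675 and 447 with DESeq2. At 6 h 334 higher and 107 lower became 973 and 630 with DESeq2. H3K4me3, 0 calls, became 536 with the replicate block, 11 with edgeR and 16 with DESeq2, and H3K27ac from 6 to 24 h, 0 calls, became 36 with the block. BALB, 69 calls, became 229 with the block and 8 in the stricter class. NOD, 3 calls, became 10 with a pseudocount of 5, 17 with a filter on low regions, 0 with scaling, 422 with the block, 12 with edgeR, 54 with DESeq2 and 0 in the stricter class. PWK, 15 calls, became 5 with scaling, 257 with the block, 7 with edgeR, 34 with DESeq2 and 3 in the stricter class. SPRET, 44 calls, became 184 with the block and 6 in the stricter class. Over all NOD regions 39 higher and 0 lower became 0 and 0 with scaling, 79 and 0 with edgeR and 930 and 287 with DESeq2. Over all PWK regions 293 and 29 became 93 and 2, 125 and 3, and 582 and 69. For the block, the pseudocount and the filter the calls over all regions were not counted, so those numbers have no share beside them. Outside Pol II at 24 h, the fits compare groups that share 2 replicate numbers, which the labels do not tie to a batch. The correlation of same-numbered libraries in these fits ranged from r = 0.014 (H3K27ac from 6 to 24 h) to 0.492 (NOD). Whether the numbers mark pairs was not tested. After Egr2 deletion, 47 calls became 25 with scaling, 13 with DESeq2, which turned the balance to 7 higher and 6 lower, and 6 in the stricter class.

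Leaving out 1 library at a time gave 0 to 43 calls for Pol II at 24 h, 0 to 0 for H3K4me3, 0 to 128 for Pol II at 6 h, 0 to 1 for H3K27ac from 6 to 24 h, 26 to 50 in BALB, 0 to 83 in NOD, 0 to 80 in PWK, 0 to 20 in SPRET and 13 to 53 after Egr2 deletion. For the fold thresholds, higher and lower regions together, it gave 235 to 391 for H3K27ac and 86 to 137 for Pol II. The 391 for H3K27ac were 301 higher and 90 lower, without basal replicate 1, and without basal replicate 2 it was 284 higher and 50 lower. For Pol II, leaving out basal replicate 1, 24 h replicate 2 or 24 h replicate 3 gave 137, 113 and 135. The 240 regions past the H3K27ac thresholds, all higher, became 376 with scaling, all higher, 599 with no minimum of tags, of which 506 were higher and 93 lower, and 26 in the stricter class, and without the mitochondrial regions, an alternative chosen after seeing the data, 237. The 70 past the Pol II thresholds became 42 with a pseudocount of 5, 118 at a fold of 2, 107 with no minimum, 14 in the stricter class and 70 without the mitochondrial regions. Shares with a 24 h peak, when the centre had to lie within 100 bp, only the better-scored part of the list counted, or in the stricter class, were 45.5, 33.7 and 29.8% for PU1, 24.5, 17.2 and 12.3% for CEBPb, 27.3, 14.9 and 6.31% for STAT6, 22.7, 13.5 and 33.97% for EGR2 and 22.3, 14.6 and 17.5% for PPARg.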
